A study of Mus musculus with 23 samples.

Results

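In Ebf2-EGFP+ cells of the E11.5 mouse cerebral cortex, 1351 of 6387 H3K27me3 peaks (21.2%) overlapped an H3K27ac peak, and 780 of 21938 protein-coding transcription start sites (TSS) had a peak of both marks within 5 kb. The regions described here are those 1351 H3K27me3 peaks, the 1342 H3K27ac peaks (of 37055) that they met by at least 1 bp, and the 780 TSS. The cells came from embryos of the strain Tg(Ebf2-EGFP)FB58Gsat, in which EGFP is driven by an Ebf2 transgene, and were purified by FACS. At E11.5 the Ebf2-EGFP+ fraction is mostly preplate neurons, that is Cajal-Retzius (CR) and subplate neurons together, and the Ebf2-EGFP- fraction is mostly progenitors. There were 2 H3K27ac and 2 H3K27me3 ChIP-seq libraries of the E11.5 Ebf2-EGFP+ cells among the 23 samples of the series. Each mark was given as 1 peak list per group, so no value has a replicate and no difference could be tested. The 95% Wilson intervals below cover counting of peaks or genes only, and the read depth behind a peak is unknown. The same strain gave the sorted cells used for comparison, which were E11.5 Ebf2-EGFP-, E13.5 Ebf2-EGFP+ and E15.5 Ebf2-EGFP+.

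H3K27ac and H3K27me3 are alternative modifications of the same lysine of histone H3. Acetylation is found at active promoters and enhancers, whereas trimethylation is deposited by Polycomb repressive complex PRC2 and accompanies repression, typically over the CpG-rich promoters of developmental regulators. A single histone tail cannot carry both at its lysine 27. Both marks at 1 place in a population can stand for different cells, different alleles or different nucleosomes, and peak lists of pooled cells cannot tell these apart.

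The sequences below show what lay under both marks, on the plus strand of mm10, and refer to the peaks counted later. The first set shows the homeodomain factor genes Nkx6-1 and Lhx3 and the neuronal ligand gene Nxph4, whose common stretch avoided untranslated regions. These genes were chosen after their values were seen, and every base printed lay under both peaks. Nkx6-1 lies in a coding exon with 13 CpG, Lhx3 spans an exon and an intron edge, and Nxph4 lies in an intron.
Nkx6-1, chr5:101663632-101663747: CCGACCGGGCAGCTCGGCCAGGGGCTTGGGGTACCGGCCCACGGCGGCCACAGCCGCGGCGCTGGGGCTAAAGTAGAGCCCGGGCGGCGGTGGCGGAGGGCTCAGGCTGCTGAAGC
Lhx3, chr2:26203999-26204178: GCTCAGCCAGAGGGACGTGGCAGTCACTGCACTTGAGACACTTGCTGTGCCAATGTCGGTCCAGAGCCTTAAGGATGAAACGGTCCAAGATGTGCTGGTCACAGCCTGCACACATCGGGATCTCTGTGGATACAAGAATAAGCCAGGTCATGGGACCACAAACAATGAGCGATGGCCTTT
Nxph4, chr10:127534038-127534171: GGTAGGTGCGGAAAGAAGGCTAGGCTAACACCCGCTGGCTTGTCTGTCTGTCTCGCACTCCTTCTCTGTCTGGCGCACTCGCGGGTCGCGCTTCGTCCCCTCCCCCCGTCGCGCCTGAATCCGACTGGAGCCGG
The second set holds whole H3K27ac peaks of at most 300 bp that avoid exons and lie within 5 kb of a TSS, with the bases also under the H3K27me3 peak in capitals. The first 3 had the most bases in common over all genes, and the last 3 the most among the genes of the lists.
4930522L14Rik, chr5:109754889-109755148: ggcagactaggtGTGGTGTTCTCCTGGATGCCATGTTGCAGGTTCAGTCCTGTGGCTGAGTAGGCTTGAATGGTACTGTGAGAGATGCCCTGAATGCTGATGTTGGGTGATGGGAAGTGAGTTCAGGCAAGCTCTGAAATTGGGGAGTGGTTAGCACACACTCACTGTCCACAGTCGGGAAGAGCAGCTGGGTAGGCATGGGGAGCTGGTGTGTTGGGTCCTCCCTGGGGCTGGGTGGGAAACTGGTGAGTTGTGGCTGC
Hspa1b, chr17:34959355-34959600: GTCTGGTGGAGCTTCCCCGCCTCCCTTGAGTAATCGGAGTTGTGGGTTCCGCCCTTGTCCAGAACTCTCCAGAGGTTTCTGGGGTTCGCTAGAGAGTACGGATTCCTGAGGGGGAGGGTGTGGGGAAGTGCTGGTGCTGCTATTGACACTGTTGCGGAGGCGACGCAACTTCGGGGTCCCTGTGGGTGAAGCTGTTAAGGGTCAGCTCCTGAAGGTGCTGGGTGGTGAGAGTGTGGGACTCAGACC
Tmem125, chr4:118547234-118547509: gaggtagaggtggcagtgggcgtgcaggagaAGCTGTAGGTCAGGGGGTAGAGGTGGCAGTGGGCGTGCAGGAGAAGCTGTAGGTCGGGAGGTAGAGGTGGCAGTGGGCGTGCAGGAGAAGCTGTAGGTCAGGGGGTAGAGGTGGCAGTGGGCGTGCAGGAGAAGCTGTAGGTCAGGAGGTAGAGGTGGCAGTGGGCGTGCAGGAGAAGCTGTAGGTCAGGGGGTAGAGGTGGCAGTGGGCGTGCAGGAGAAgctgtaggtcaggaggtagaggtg
Zfp580, chr7:5047861-5048066: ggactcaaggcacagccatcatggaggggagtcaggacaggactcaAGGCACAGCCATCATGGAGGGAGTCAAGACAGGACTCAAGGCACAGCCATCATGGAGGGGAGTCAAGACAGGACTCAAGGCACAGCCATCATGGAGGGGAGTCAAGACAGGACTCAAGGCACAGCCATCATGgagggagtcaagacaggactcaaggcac
Slc1a1, chr19:28839091-28839323: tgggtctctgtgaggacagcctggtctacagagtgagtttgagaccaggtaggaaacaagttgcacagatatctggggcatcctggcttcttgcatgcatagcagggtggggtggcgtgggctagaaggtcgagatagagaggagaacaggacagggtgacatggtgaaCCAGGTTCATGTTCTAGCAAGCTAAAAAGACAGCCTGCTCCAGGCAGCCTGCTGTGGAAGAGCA
Slc7a10, chr7:35185318-35185476: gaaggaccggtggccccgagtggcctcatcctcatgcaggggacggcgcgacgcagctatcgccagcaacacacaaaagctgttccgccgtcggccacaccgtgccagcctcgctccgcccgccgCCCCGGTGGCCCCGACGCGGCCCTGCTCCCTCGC
The CpG count of the capitals was 1 at 4930522L14Rik, 9 at Hspa1b (an inducible heat shock chaperone), 6 at Tmem125 and 5 at Slc7a10, and there was no CpG at Zfp580 or Slc1a1. The stretch at Tmem125 repeated itself every 44 bp. For contrast, 2 H3K27me3 peaks at TSS that had H3K27me3 only are given in lower case, since no base of them lay under H3K27ac. They held 9 CpG at Sstr5, a somatostatin receptor, and 6 at Slc22a30, an organic anion transporter.
Sstr5, chr17:25496357-25496654: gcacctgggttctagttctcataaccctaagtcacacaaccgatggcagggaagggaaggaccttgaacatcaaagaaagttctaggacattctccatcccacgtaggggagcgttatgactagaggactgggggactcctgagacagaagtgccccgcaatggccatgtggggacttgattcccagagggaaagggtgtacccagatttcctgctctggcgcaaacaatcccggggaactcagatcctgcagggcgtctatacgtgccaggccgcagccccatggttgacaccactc
Slc22a30, chr19:8407708-8407989: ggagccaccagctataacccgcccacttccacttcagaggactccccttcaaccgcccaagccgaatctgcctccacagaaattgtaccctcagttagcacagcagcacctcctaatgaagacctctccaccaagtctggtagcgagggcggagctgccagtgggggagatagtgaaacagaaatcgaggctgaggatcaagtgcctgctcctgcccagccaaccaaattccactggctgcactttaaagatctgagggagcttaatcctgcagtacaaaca

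To see how closely the marks met, the geometry of the 1357 overlapping pairs was measured. The share of H3K27me3 peaks that met H3K27ac was 21.2% (interval 20.2 to 22.2) and the share of H3K27ac peaks that met H3K27me3 was 3.62% (3.44 to 3.82). The lists differed in extent, with H3K27ac covering 10140 kb and H3K27me3 covering 1083 kb. The marks had 193254 bp in common, which was 17.8% of the H3K27me3 bases and 1.91% of the H3K27ac bases. A pair had a median of 132 bp in common (quartiles 101 and 175). This was a median of 90.1% of the H3K27me3 peak and 49.2% of the H3K27ac peak. The H3K27me3 peak lay wholly inside the H3K27ac peak in 39.5% of pairs, the reverse held in 4.57%, and 55.9% met in part. In 63.4% of pairs the peak centres were within 100 bp of each other. Few pairs met at an edge, since 9.87% had under 50 bp in common.

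Both kinds of peak were wider where they met. H3K27me3 peaks had a median width of 169 bp when shared and 149 bp when not, and H3K27ac peaks had 259 bp and 211 bp. A wider peak has more bases on which to meet another, and this was not separated from other properties. The share of H3K27me3 peaks meeting H3K27ac went from 16.2% in the narrowest width class to 48.9% (42.5 to 55.4) for those of 300 bp or more. The smallest H3K27me3 width in the list, 116 bp, was held by 8.73% of shared and 14.6% of other H3K27me3 peaks.

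Base composition also differed. Shared H3K27me3 peaks had a median GC content of 60.4% and the others 55.6%. The share of H3K27me3 peaks meeting H3K27ac was 1.64% (0.290 to 8.72) below 45% GC, 10.2% between 50 and 55% GC, 33.8% between 60 and 65% GC and 64.9% (60.7 to 68.9) from 65% GC. Short CpG-island-like peaks, with at least 50% GC and an observed/expected CpG ratio of at least 0.6, made up 26.0% of the shared and 6.02% of the other H3K27me3 peaks. Among H3K27ac peaks the corresponding shares were 26.2% and 32.0%, so the H3K27ac peaks that met H3K27me3 were not richer in such sequence than the rest.

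The annotated position of the peaks followed the same division. Of the 389 H3K27me3 peaks centred within 1 kb of a protein-coding TSS, 208 met H3K27ac (53.5%, interval 48.5 to 58.4). The share was 27.8% for exons, 16.0% for introns and 17.0% for intergenic sequence. Promoters thus held 15.4% of shared but 3.59% of other H3K27me3 peaks, against 1.52% of all bases. For H3K27ac the direction was opposite, with 15.9% of shared and 24.8% of other peaks at promoters. Exons held 27.5% of shared and 17.2% of other H3K27ac peaks.

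**Figure D1:**
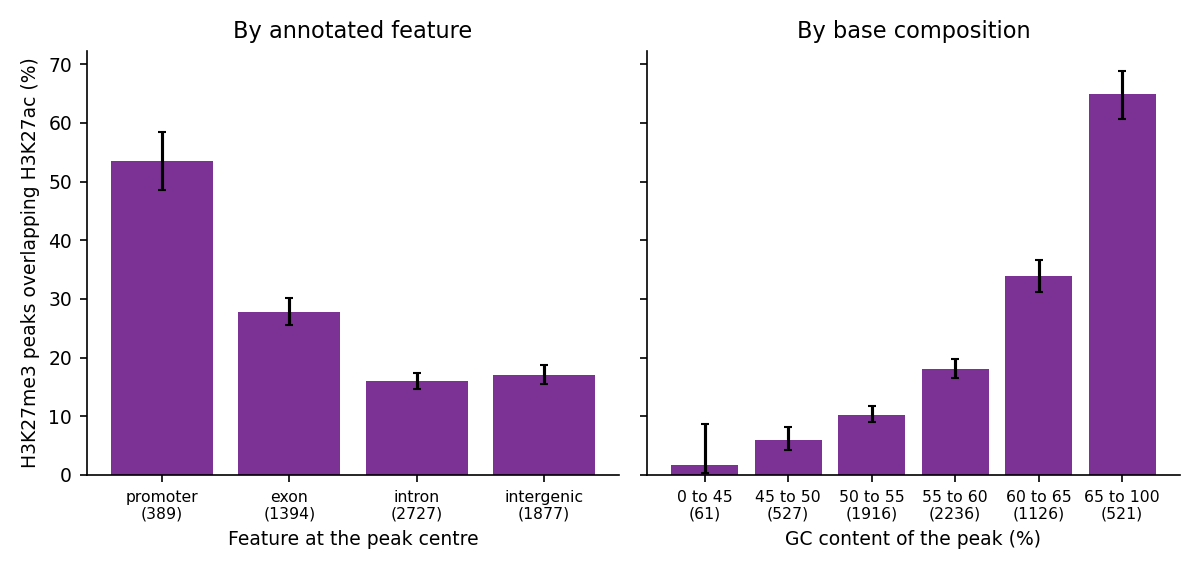
Percent of E11.5 Ebf2-EGFP+ H3K27me3 peaks that overlapped an H3K27ac peak by at least 1 bp, by the feature at the peak centre (left) and by the GC content of the peak in percent (right). Error bars are 95% Wilson intervals over peaks and the numbers in parentheses are peaks. The share was 53.5% at promoters and 16.0% in introns, and went from 1.64% below 45% GC to 64.9% from 65% GC.

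Distances from H3K27me3 peaks to H3K27ac varied widely, and no background distance was measured beside them. Edge to edge, 8.99% of all H3K27me3 peaks were within 1 kb of an H3K27ac peak without touching it, 16.6% were 1 to 5 kb away, 25.5% were 5 to 20 kb away and 6.01% were over 100 kb away. The median distance from an H3K27me3 peak to the nearest H3K27ac peak was 6268 bp, or 10999.5 bp over the peaks that did not overlap one. Among the latter the median was 5879 bp for exonic peaks, 7777 bp for promoter peaks, 10628 bp for intronic peaks and 18505 bp for intergenic peaks. From the other side, the median distance from an H3K27ac peak to H3K27me3 was 65531 bp, and 39.8% of H3K27ac peaks were over 100 kb away. The lists held 37055 and 6387 peaks, so the longer distances from H3K27ac are in part what the list lengths give.

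**Figure D2:**
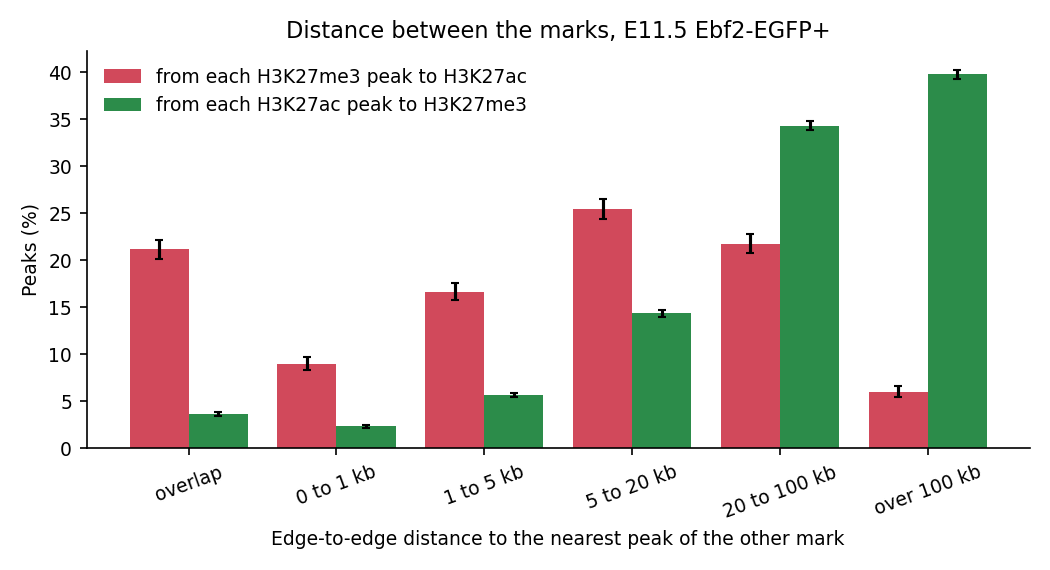
Percent of peaks (vertical axis) by edge-to-edge distance to the nearest peak of the other mark (horizontal axis), for the 6387 H3K27me3 and 37055 H3K27ac peaks of E11.5 Ebf2-EGFP+ cells, with 95% Wilson intervals. Overlap was the state of 21.2% of H3K27me3 and 3.62% of H3K27ac peaks, and 39.8% of H3K27ac peaks lay over 100 kb from H3K27me3.

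The TSS were then sorted by the marks within 5 kb. Of 21938 protein-coding TSS, 780 had both marks (3.56%, interval 3.32 to 3.81), 10177 had H3K27ac only (46.4%), 300 had H3K27me3 only (1.37%) and 10681 had neither (48.7%). In all, 49.9% of TSS had H3K27ac and 4.92% had H3K27me3. TSS with H3K27me3 had H3K27ac in 72.2% of cases, against 48.8% of the TSS without H3K27me3.

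This association was present in both CpG classes of TSS. A TSS was called CpG-rich when the 500 bp on either side had at least 50% GC and an observed/expected CpG ratio of at least 0.6, which held for 44.4% of TSS. Of CpG-rich TSS with H3K27me3, 88.1% (84.9 to 90.6) had H3K27ac, against 77.7% (76.9 to 78.6) of the other CpG-rich TSS. Of CpG-poor TSS the shares were 58.4% (54.3 to 62.4) and 25.8%. By state, CpG-rich TSS made up 56.8% of those with both marks, 70.5% of those with H3K27ac only, 60 of the 300 with H3K27me3 only and 19.3% of those with neither. H3K27me3 itself was about as frequent at CpG-rich (5.17%) as at CpG-poor TSS (4.73%). Genes with both marks had a median length of 13.4 kb, genes with H3K27ac only 22.3 kb and those with H3K27me3 only 13.3 kb. A second protein-coding TSS lay within 5 kb of 25.9% of TSS with both marks and of 27.6% with H3K27ac only. The share was 13% with H3K27me3 only, 11.3% with neither and 19.4% over all TSS. Such neighbours can be counted through the same peaks.

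At the 780 TSS with both marks, sharing a window did not always mean sharing bases. Peaks of the marks overlapped each other at 404 of them (51.8%, interval 48.3 to 55.3), lay apart by up to 1 kb at 123 (15.8%) and by more at 253 (32.4%). Where they did not overlap, the median gap was 1958.5 bp. The H3K27ac peak was the nearer to the TSS at 594 (76.2%) and the H3K27me3 peak at 160 (20.5%). The nearest H3K27ac peak was a median of 191 bp from the TSS and the nearest H3K27me3 peak 1762 bp. An H3K27ac peak lay within 1 kb at 71.9% of these TSS and an H3K27me3 peak at 39.2%. Where H3K27ac was alone the corresponding share was 82.0%, and where H3K27me3 was alone it was 36.3%. Both marks were mostly downstream of the start, with the centre of the nearest peak downstream at 73.7% of TSS for H3K27ac and 65.6% for H3K27me3. At 730 of the 780 TSS there was a single H3K27me3 peak, and the widest had a median of 161.5 bp.

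**Figure D3:**
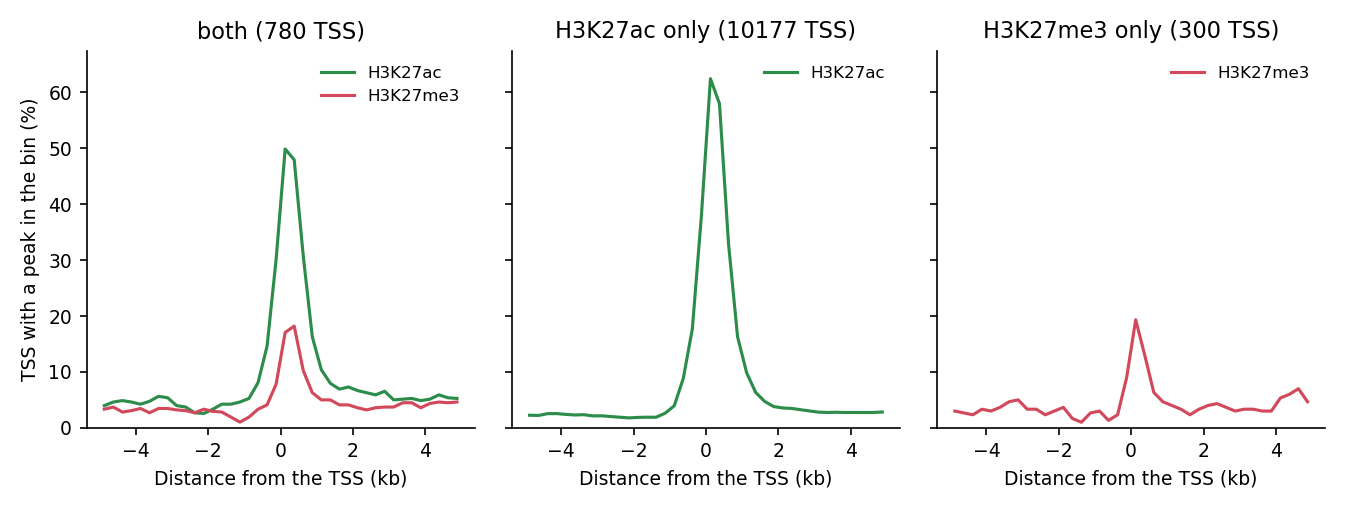
Percent of TSS with a peak in each 250-bp bin (vertical axis) by distance from the TSS in kb (horizontal axis, positive is downstream), for TSS with both marks, H3K27ac only and H3K27me3 only within 5 kb in E11.5 Ebf2-EGFP+ cells. H3K27ac stood higher than H3K27me3 around the TSS with both marks, where a peak lay within 1 kb at 71.9% and 39.2% of the TSS.

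Coverage of coding sequence by the marks was measured over the genes, since a few H3K27me3 peaks followed exons. Of 21263 genes with at least 300 bp of coding sequence, 5 had at least 50% of it under E11.5 Ebf2-EGFP+ H3K27me3 and 346 under H3K27ac. Vcam1, an adhesion molecule of endothelium and neural stem cells, had 74.8% of its 2406 bp under H3K27me3. It carried 9 H3K27me3 peaks and no H3K27ac peak, 0 of the 9 lay outside exons, and 7 lay wholly within coding sequence with their edges 6 to 124 bp from the ends of the coding blocks. In the E15.5 list its coding sequence was covered to 63.6% by H3K27me3, in E13.5 to 0%. Whether spliced sequence of the gene, such as cDNA or a plasmid, gave reads to these peaks was not tested, so this coverage is not read as a level of H3K27me3 at Vcam1.

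Some TSS with long common stretches held several peaks of each mark, while others held a single overlapping pair. AW822073 had 5 H3K27ac and 4 H3K27me3 peaks with 745 bp in common, Tmem125 had 4 and 2 with 712 bp, and Zfp710, a zinc finger gene, had 5 and 3 with 595 bp. AW822073 had the most H3K27me3 peaks of any TSS with both marks. Besides Zfp710, 3 such peaks were found at Thada, named after its value was seen, and at Ints1 (a subunit of the Integrator complex), Lypla2 (a depalmitoylating thioesterase), Matk (a tyrosine kinase) and Shank3 (a postsynaptic scaffold). Of TSS with H3K27me3 only, Vcam1 had 3 peaks and 3100002H09Rik, Clpp (a mitochondrial protease subunit) and Pheta2 had 2 each.

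Hox genes, classic Polycomb targets, were compared between the lists. None of 39, which specify axial position and are silent in the forebrain, had H3K27me3 in these cells. With H3K27me3 at 4.92% of all TSS, a list of 39 would hold few such genes, so the 0 alone is no result. H3K27ac was at 15 of the 39 (38.5%, against 49.9% of all TSS), and 24 had neither mark. In the E13.5 Ebf2-EGFP+ list, which is about as long (6721 peaks), 24 of the 39 had H3K27me3, and in the E11.5 Ebf2-EGFP- list (48962 peaks) 28 had it. Of all TSS, 4.92% had H3K27me3 in E11.5 Ebf2-EGFP+, 9.31% in E13.5 and 48.2% in E11.5 Ebf2-EGFP- lists. Of 72 transcription factors of non-neural lineages, 2 had H3K27me3 here, 28 at E13.5 and 51 in Ebf2-EGFP- cells. One was Foxe1, a thyroid factor, whose peaks had 116 bp in common. The other was Pax3, a neural crest and muscle factor, with a single 116-bp H3K27me3 peak and no H3K27ac.

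Of 29 forebrain patterning genes 3 had both marks (10.3%, against 3.56% of all TSS), among them Barhl2 and Vax1, 19 had H3K27ac only and 7 had neither. At Barhl2, a homeodomain factor of the thalamic eminence, the 158-bp H3K27me3 peak was 626 bp upstream of the TSS and 1140 bp from the nearest H3K27ac peak. At Vax1, a factor of the ventral forebrain and optic stalk, the marks were 2005 bp apart. Of 12 LIM homeodomain genes, Lhx3 and Lhx6 had both (16.7%). The marks had 180 bp in common at Lhx3, a motor neuron factor, 4111 bp from the TSS, and were 1350 bp apart at Lhx6, a factor of cortical interneurons.

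Genes of ventral and interneuron identity gave 3 of 20 with both marks, against 3.56% of all TSS, and these were Dlx2, Nkx6-1 and Lhx6, and 1 with H3K27me3 only, the neuropeptide gene Sst. At Nkx6-1, a factor of the ventral neural tube, a 116-bp H3K27me3 peak lay wholly inside an H3K27ac peak of 1579 bp. At Dlx2, which drives interneuron differentiation, the marks were separated by 24 bp. Of 18 proneural and neuronal bHLH genes, 1 had both, 13 had H3K27ac only and 4 had neither.

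At the background of 3.56% of TSS with both marks, lists as short as those of cell type markers would hold 1 such gene or none, so their zeros are no result about the markers. Of 15 CR and preplate markers, among them Reln, Trp73 and Ebf2, 11 had H3K27ac only and 4 neither, where 46.4% of all TSS had H3K27ac only. In the Ebf2-EGFP- list 11 of the 15 had H3K27me3, against 48.2% of all TSS. That list also had H3K27me3 at 14 of 20 cortical progenitor, 28 of 40 axon guidance and 10 of 15 housekeeping genes. Such a share is thus not particular to CR markers. Other lists had lower shares there, as at 3 of 8 microglial and 0 of 9 erythroid genes. In Ebf2-EGFP+ cells, 16 of the 20 cortical progenitor genes had H3K27ac only and 4 neither. Of the 40 axon guidance genes, 33 had H3K27ac only and 7 neither. Nxph4, a secreted neurexin ligand of subplate neurons, was the 1 of 13 subplate and early neuron genes with both, with 134 bp in common. Elavl2, which encodes a neuronal RNA-binding protein, had a 132-bp H3K27me3 peak over its start and no H3K27ac peak, the 1 of 16 pan-neuronal genes with H3K27me3. No TSS of the endothelial, microglial, meningeal or erythroid lists had both marks. H3K27ac, which was at 49.9% of all TSS, was found at 3 of 8 endothelial, 2 of 8 microglial, 3 of 8 meningeal and 0 of 9 erythroid genes, and Hba-a2, an alpha globin gene, had H3K27me3 only. Their part in the results was not tested.

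Larger families are given by their counts beside the 3.56% of all TSS. Both marks were found at 16 of 391 Zfp genes, 15 of 334 solute carriers, 3 of 81 ribosomal protein genes (Rpl22, Rpl27 and Rpl8), 4 of 57 clustered protocadherins, 2 of 67 replication-dependent histones, 3 of 49 keratins and 2 of 40 voltage-gated potassium channels. They were also found at 5 of 44 Fox genes (among them Foxe1, Foxh1, Foxb1 and Foxj1), 4 of 29 semaphorins and plexins (Sema6b, Sema6c, Sema3b and Sema3g) and 2 of 19 Sox genes (Sox8 and Sox13). Receptors of smell were nearly free of either mark, with both at 1 of 1093 olfactory and 1 of 327 vomeronasal receptor genes. Of 36 signalling ligands 2 had both, Fgf3 with 185 bp in common and Wnt2b with 112 bp. Of 36 genes of Polycomb and H3K27 enzymes the 1 with both was Phc3, a PRC1 subunit, with 175 bp in common. Both marks were also found at 2 of 41 cell cycle genes (Ccna1 and E2f2), 2 of 39 proteasome subunits (Psmb10 and Psmc3), 1 of 38 glutamate and GABA receptors (Grin3b), 1 of 36 complex I subunits (Ndufc1) and 1 of 15 housekeeping genes (Ywhaz).

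**Figure D4:**
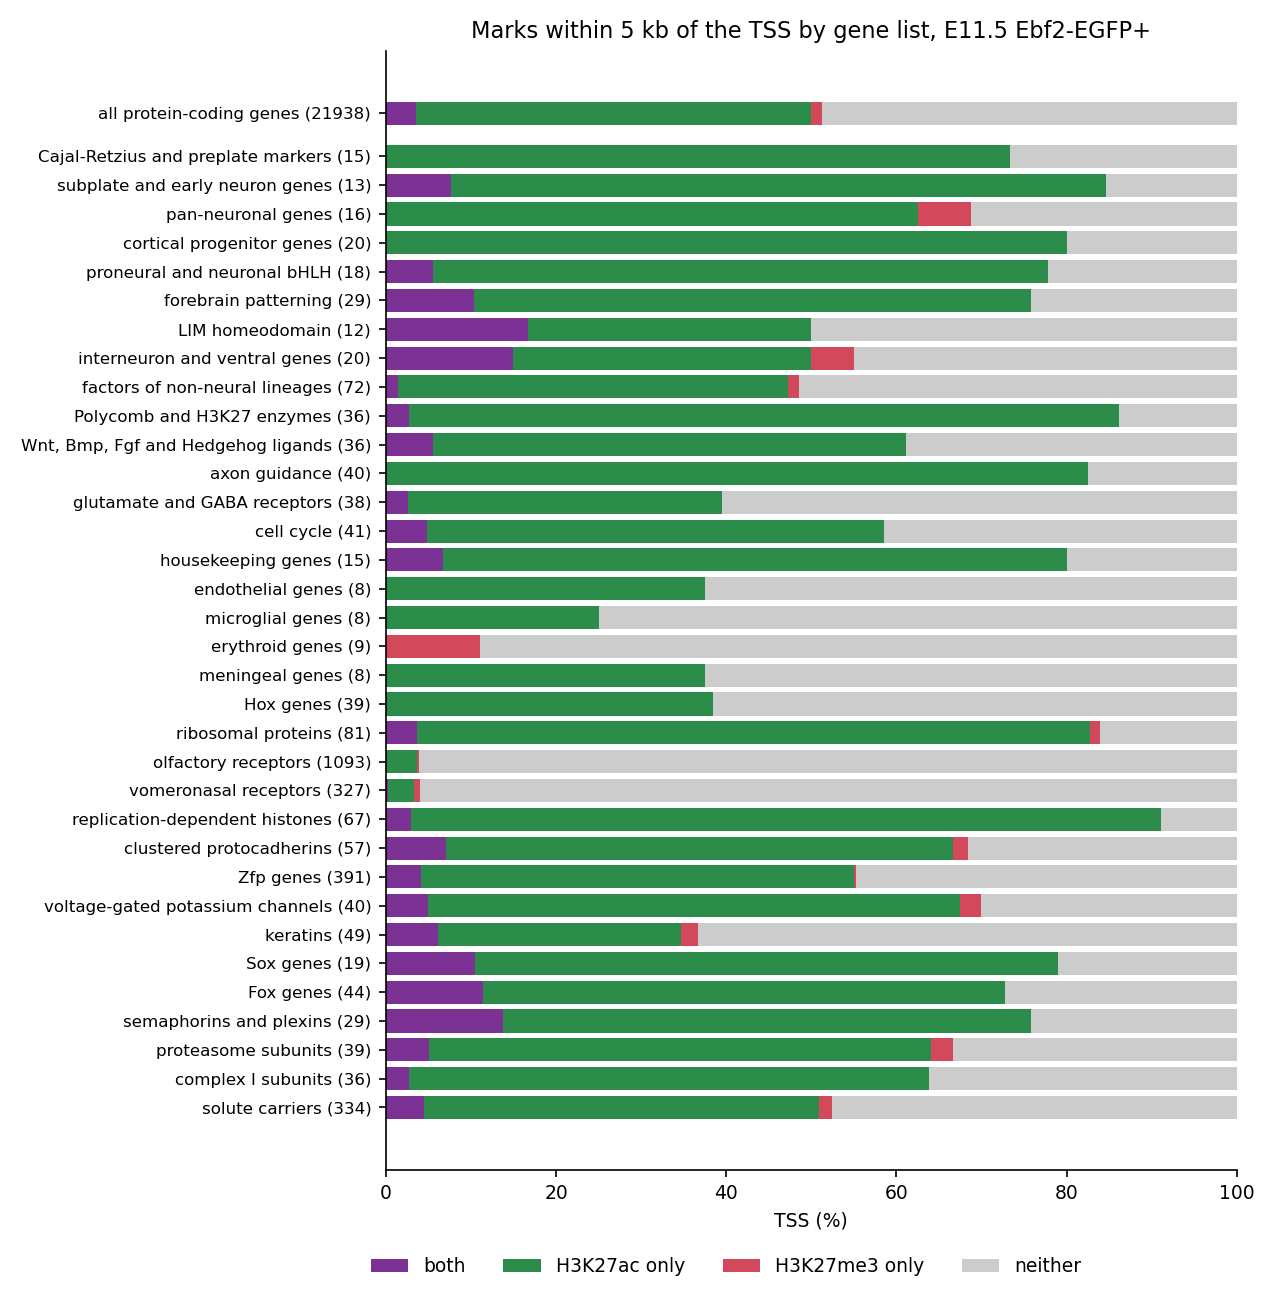
Percent of TSS (horizontal axis) with both marks, H3K27ac only, H3K27me3 only or neither within 5 kb in E11.5 Ebf2-EGFP+ cells, for all protein-coding genes (top bar) and for each gene list, with the number of genes in parentheses. Both marks were at 3.56% of all TSS, at 0 of 39 Hox genes and at 0 of 15 CR and preplate markers. At that background, lists this short would hold few such genes or none, so these zeros are no result about the lists.

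The 780 TSS were then followed in the other cells. In Ebf2-EGFP- cells of the same age 583 (74.7%) had H3K27me3 only, 36 (4.62%) both, 4 H3K27ac only and 157 (20.1%) neither. The Ebf2-EGFP- lists hold 48962 H3K27me3 but 1386 H3K27ac peaks, the latter from a group of 1 library, so H3K27ac could be found at few TSS there. H3K27me3 of Ebf2-EGFP- cells was at 79.4% of TSS with both marks, 69.0% with H3K27ac only, 48.3% with H3K27me3 only and 26.0% with neither. At E13.5, 559 of the 780 (71.7%) had H3K27ac only, 150 (19.2%) both, 2 H3K27me3 only and 69 neither. At E15.5, 534 (68.5%) had H3K27ac only, 18 (2.31%) both, 5 H3K27me3 only and 223 (28.6%) neither. Over all TSS, both marks were at 0.752% for E15.5, 8.39% for E13.5 and 3.42% for the Ebf2-EGFP- fraction. H3K27ac only was at 52.5% of all TSS at E13.5 and 51.5% at E15.5, and H3K27me3 only at 44.7% in Ebf2-EGFP- cells. E13.5 H3K27ac, with or without H3K27me3, was at 90.9% of the 780 and at 80.4% of TSS with H3K27ac only at E11.5. For E15.5 H3K27ac these shares were 70.8% and 80.9%. The 150 were 8.15% of the 1840 TSS with both marks at E13.5. Of the named genes that had both at E11.5, Nkx6-1, Fgf3, Sox8, Sox13, Lhx3, Vax1 and Zfp710 were among those with both again at E13.5, and Dlx2, Barhl2 and Lhx6 among those with H3K27ac only.

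**Figure D5:**
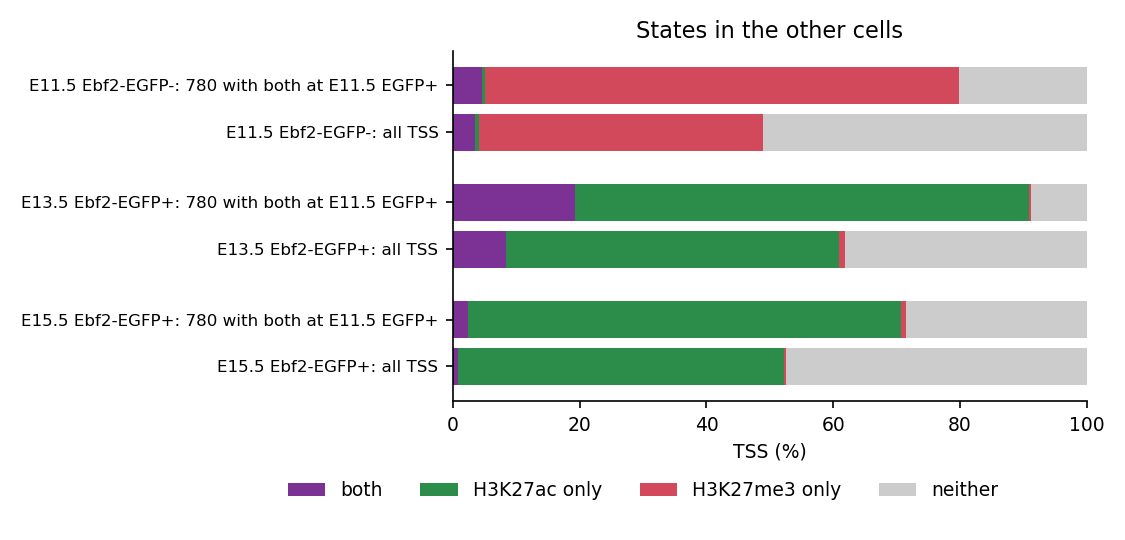
Percent of TSS (horizontal axis) in each state in the other sorted cells (E11.5 Ebf2-EGFP-, E13.5 Ebf2-EGFP+, E15.5 Ebf2-EGFP+), for the 780 TSS with both marks in E11.5 Ebf2-EGFP+ cells and for all 21938 TSS. Of the 780, 74.7% had H3K27me3 only in Ebf2-EGFP- cells and 71.7% had H3K27ac only at E13.5, against 44.7% and 52.5% of all TSS.

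Peak by peak, the shared H3K27me3 regions were more often found in other lists than the rest. An H3K27me3 peak of Ebf2-EGFP- cells overlapped 41.5% of them and 10.5% of the other H3K27me3 peaks. For E13.5 H3K27ac these shares were 53.2% and 18.8%, for E15.5 H3K27ac 24.0% and 3.44%, and for E13.5 H3K27me3 7.33% and 1.43%. The shared peaks were chosen for lying on E11.5 H3K27ac, so their higher shares in the H3K27ac lists follow in part from that choice. Among E11.5 Ebf2-EGFP+ H3K27ac peaks, E13.5 H3K27ac overlapped 56.3% of the shared and 35.9% of the others. For E15.5 H3K27ac the direction was opposite, with 24.7% and 27.6%. In none of the other 6 lists were 30.6% (28.2 to 33.2) of the shared and 72.2% (70.9 to 73.4) of the other H3K27me3 peaks. The lists differ in length, which bears on how often each can be met.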

How the data were processed

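FACS-sorted cells were profiled by ChIP-seq with antibodies Ab4729 (H3K27ac) and Ab6002 (H3K27me3). Per the methods of the study and the labels, Bowtie 1.1.2 aligned the reads to mm10, with at most 3 mismatches, and MACS (version not given in the sources used here) called the peaks. Groups had 2 libraries, except E11.5 Ebf2-EGFP- H3K27ac with 1, and whether libraries of a group were pooled is not given in the sources used here. The authors deposited 1 BED list per mark and group, whose score column is 0 in every row, so peaks could not be ranked and no replicate, depth or strength entered any value. A Bowtie setting that reports 1 place for a read with several matches can put repeat-derived reads at arbitrary copies. No column of other samples was present (0 left unused).

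Overlaps of at least 1 bp, distances, GC and CpG values were computed with Python 3.11.15, pandas 2.3.3, numpy 2.4.6, scipy 1.17.1 and pysam 0.24.0 on chromosomes 1 to 19, X and Y. TSS were the 5′ ends of 21938 protein-coding genes of GENCODE M21, and sequence was read from GRCm38 (RefSeq). A TSS was marked when a peak lay within 5 kb. Features were assigned by peak centre in the order promoter (1 kb), exon, intron, intergenic. Interval functions were tested on simulated data. The members and gene lists were chosen with earlier results of these data known. Named genes were at most 5 per list with both marks or H3K27me3 only, ordered by bp in common, then by number of H3K27me3 peaks, then by name, and over all genes the 5 with the most bp in common, the 5 with both marks and the most H3K27me3 peaks and the 5 with H3K27me3 only and the most peaks. Sequences followed the rule given beside them, with the exon condition applied to the whole H3K27ac peak, which is tighter than planned. Coding coverage, tandem repeats and the first sequence set were added after seeing the data. Genes on chromosome 18 were counted but none of their sequence is printed. Results for some of the genes that the rule names are not reported here.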

Additional observations from a re-analysis of the deposited data

How the results depend on the processing

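With 1 list per group, leaving out a replicate could not be run. No paired analysis was possible because no result comes from a test and the lists carry no replicate numbers. Of H3K27me3 peaks, 9.79% met H3K27ac when 50% of each peak had to be in common. The share was 28.6% with both lists cut to peaks of at least 300 bp, and this setting cut both lists below as well. It was 30.1% when a gap of up to 1 kb counted, and 19.8% without peaks of tandem repeat, an alternative added after seeing the data. For H3K27ac peaks these values were 1.69%, 0.679%, 5.95% and 3.33%, and 3.94% after merging peaks within 1 kb. With TSS windows of 1 kb, 2 kb, any annotated transcript start, and peaks of at least 300 bp, in that order, both marks were at 1.22%, 1.73%, 7.61% and 0.150% of TSS, H3K27ac only at 39.4%, 41.8%, 48.2% and 28.7%, H3K27me3 only at 0.670%, 0.880%, 1.66% and 0.0912%, and neither at 58.8%, 55.6%, 42.5% and 71.0%. In the same order, H3K27ac was at 64.6%, 66.3%, 82.1% and 62.3% of H3K27me3 TSS, and peaks overlapped at 82.1%, 70.8%, 38.9% and 60.6% of TSS with both. On chromosomes 1 to 19, H3K27ac only was at 48.0% and neither at 46.8%. Promoters held 26.7% of shared H3K27me3 peaks when defined by 5 kb and 11.7% under the 50% overlap. CpG-rich TSS made up 32.1% of those with both at an observed/expected ratio of 0.75. A stricter ratio can only lower this share in any set of TSS, and the share over all TSS at 0.75 is not given here. The median distance was 11419 bp for peaks of at least 300 bp. Only 3 H3K27me3 and 3 H3K27ac peaks overlapped a peak in all the other 7 lists. Leaving them out could hardly move a share of lists this long, and moved none of these results past its interval. Of 81 named genes, 35 kept their state with a 1-kb window, 46 with 2 kb, 78 with any transcript start, and 6 with peaks of at least 300 bp. The cause was not tested. Without scores or replicates, the precision of a single peak cannot be given.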

Other observations

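Tandemly repeated sequence was more frequent under both marks. A peak was counted as repeated when at least 80% of the bases compared equalled the base 8 to 100 bp upstream at some fixed period. Narrow peaks allowed fewer periods under this rule than wide ones, and the shared peaks were the wider. Repeats whose copies differ in length, as at Zfp580, can be missed by this rule. This held for 144 of 1351 shared H3K27me3 peaks (10.7%, interval 9.12 to 12.4), 2.80% of the other H3K27me3 peaks, 1.80% of H3K27ac peaks that met no H3K27me3 and 0.442% of 153-bp windows set every 100 kb along the genome. Soft-masked repeat made up at least 50% of 16.6% of the shared and 12.5% of the other H3K27me3 peaks. The part of repeats in the overlap was not tested beyond the share without such peaks.

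The sex chromosomes had few H3K27me3 peaks but a high share that met H3K27ac, with 34 of 77 on X (44.2%, interval 33.6 to 55.3) and 7 of 8 on Y, against 14.6% to 27.9% on the autosomes. Mid1, a microtubule-associated ubiquitin ligase on X, alone held 8 H3K27me3 peaks, 7 of them shared, in its 320.5-kb gene body, while its TSS had neither mark. On autosomes all 6 H3K27me3 peaks of Sfi1, a centrosomal gene, all 4 of Akap6 and all 4 of Thada met H3K27ac. The lists were not filtered here for multicopy regions or regions of abnormal signal. The part of such regions in these counts was not tested, so they are not read as marking of the genes.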
